A study of Mus musculus with 4 samples.

Results

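Genes of the core peroxide and superoxide defence were followed in the liver and duodenum of mice that carry an aryl hydrocarbon receptor (AhR) acting without ligand and of their wild-type counterparts. The genes are the glutathione peroxidases Gpx1, Gpx2, Gpx3 and Gpx4, the superoxide dismutases Sod1, Sod2 and Sod3, and the catalase gene Cat. They were chosen by name, and every probe set that the platform annotation gives to them was read on all arrays. This gave 8 genes and 18 probe sets, of 18194 genes and 45101 probe sets in all.

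Superoxide dismutases turn superoxide into hydrogen peroxide and oxygen, and catalase and the glutathione peroxidases then dispose of the peroxide. Sod1 encodes the copper and zinc enzyme of the cytosol, Sod2 the manganese enzyme of the mitochondrial matrix and Sod3 a secreted enzyme that binds the extracellular matrix. Catalase sits in peroxisomes and is abundant in hepatocytes. Gpx1 to Gpx4 encode selenoproteins: Gpx1 the widely expressed cytosolic enzyme, Gpx2 the enzyme of gut epithelium, Gpx3 the secreted plasma enzyme and Gpx4 the enzyme that reduces lipid peroxides in membranes. AhR is a ligand-activated transcription factor whose best known targets are the CYP1 cytochromes, enzymes that can release reactive oxygen as they turn over.

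The study holds 4 arrays of 1 group each: wild-type liver, CA-AhR liver, wild-type duodenum and CA-AhR duodenum, where CA-AhR stands for the constitutively active receptor of the transgenic animals. Each array was hybridised with RNA pooled from 3 female mice aged 5 to 6 weeks, kept on standard chow. For the strain and for the promoter that drives the transgene, nothing is given in the sources used here. With 1 pooled array per group no difference has a replicate check, so every value is a description of these pools, without error or test. A gene was called higher or lower in a comparison at 1.5-fold or more, and the share of all genes past that fold is given beside the counts of the 8 genes.

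Values are MAS5 signals on a linear scale, each array scaled to a trimmed mean of 500.0. Signals below a floor of 129.3, set from the dim end of all 4 arrays, were raised to it, and a fold with 1 array below the floor is a bound. The AhR target Cyp1a1 was 33.9-fold higher in CA-AhR liver and 9.86-fold higher in CA-AhR duodenum. Summed signals of 8 hepatocyte markers were 597600 and 446340 on the liver arrays and 107842 and 118438 on the duodenum arrays, and those of 8 enterocyte markers 17439 and 20413 against 221840 and 308630, wild type first. The 3′ to 5′ signal ratio of Gapdh, a sign of RNA integrity and labelling, was 0.608 in wild-type liver, 0.719 in CA-AhR liver, 1.03 in wild-type duodenum and 3.07 in CA-AhR duodenum. That of Actb was 1.51, 1.38, 1.77 and 2.69 in the same order. For 18 probe sets of spiked hybridisation controls the median log2 ratio of CA-AhR over wild type was -0.68 in liver and 0.05 in duodenum.

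The sequences upstream of 3 of the genes are shown because these genes were called between genotypes in liver: Gpx2 and Gpx3, which were higher in the CA-AhR pool, and Sod1, which was lower. Sod3, which was called there too, has no promoter entry. Each is the 250 bases before the annotated start, 5′ to 3′ on the gene's strand, from RefSeq on GRCm38.p6. Gpx2 lies at chr12:76795555-76795804 on the minus strand, Gpx3 at chr11:54902604-54902853 on the plus strand and Sod1 at chr16:90220512-90220761 on the plus strand. Capitals mark matches, on either strand, to the core of the AhR response element, GCGTG, or to the core of the antioxidant response element, TGACNNNGC.
Gpx2: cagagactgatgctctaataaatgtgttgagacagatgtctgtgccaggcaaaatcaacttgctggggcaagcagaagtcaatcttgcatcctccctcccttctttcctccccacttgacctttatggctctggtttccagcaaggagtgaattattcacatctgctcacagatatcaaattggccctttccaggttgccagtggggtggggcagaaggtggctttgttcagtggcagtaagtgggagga
Gpx3: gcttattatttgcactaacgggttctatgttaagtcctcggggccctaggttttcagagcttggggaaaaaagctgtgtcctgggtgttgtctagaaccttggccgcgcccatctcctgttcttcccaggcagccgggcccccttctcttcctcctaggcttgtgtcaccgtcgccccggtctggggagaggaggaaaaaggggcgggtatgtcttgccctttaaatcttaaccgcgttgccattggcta
Sod1: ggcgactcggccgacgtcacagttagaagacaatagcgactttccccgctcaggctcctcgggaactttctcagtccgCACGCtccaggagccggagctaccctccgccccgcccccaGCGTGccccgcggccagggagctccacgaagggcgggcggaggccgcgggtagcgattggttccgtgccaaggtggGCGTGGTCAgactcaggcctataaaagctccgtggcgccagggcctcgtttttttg

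The Sod1 sequence held 3 AhR cores, which begin 172, 132 and 56 bases before the start, and the last of these overlaps a match to the antioxidant core on the opposite strand. The Gpx2 and Gpx3 sequences held neither motif. Of the 7 genes with a promoter entry, which leaves out Sod3, 4 had an AhR core in at least 1 upstream window (Gpx1, Gpx4, Sod1 and Sod2) and 1 had an antioxidant core (Sod1). Over all 32851 promoter windows of the same length, 28.2% held GCGTG and 10.2% held TGACNNNGC. Gpx4 has 4 annotated starts and 4 windows, so it had more chances of a match. A match describes letters in this window and is not a binding site, and a window without one says nothing about the factor.

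In liver, the pools of both genotypes differed by 1.5-fold or more at 4 of the 8 genes. Gpx2, Gpx3 and Sod3 were higher in CA-AhR liver, which is 3 of 8 where 13.5% of all genes measured there were that much higher. Sod1 was lower, which is 1 of 8 where 12.1% of all genes were. At 2-fold, 1 of the 8 was called (Gpx3), against 8.3% of all genes in either direction. The Gpx3 value is a bound with the wild-type signal below the floor, so its ratio there could not be negative. The median log2 ratio of the 8 genes was 0.20, beside 0.01 over all 13952 genes. The 3 higher genes were the ones with low signal in wild-type liver, and the genes with bright signal there were lower or within 1.5-fold. In tissue RNA, fewer cells of a type and less RNA per cell cannot be told apart.

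In duodenum, Gpx2 and Cat were higher in the CA-AhR pool, which is 2 of 8 where 19.2% of all genes were, and 0 of 8 were lower where 25.9% of all genes were. At 2-fold only Gpx2 of the 8 was called, against 19.8% of all genes. The median log2 ratio of the 8 genes was -0.07, beside -0.11 over all 14721 genes. The call for Cat rests on 1 of its probe sets and is contradicted by the other. All 8 genes had at least 1 of the compared arrays above the floor in both tissues, and 14 of the 18 probe sets were above it on all 4 arrays.

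Sod1 was the member with the largest negative ratio in liver. Its brightest probe set, 1451124_at, read 24418.3 in wild-type liver, 13766.9 in CA-AhR liver, 17121.2 in wild-type duodenum and 14390.9 in CA-AhR duodenum. Wild-type liver was thus the highest array and the other arrays lay close to each other. This is 1.77-fold lower in CA-AhR liver and 1.19-fold lower in CA-AhR duodenum.

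The other probe sets of Sod1 gave the same direction in liver and mixed directions in duodenum. In liver, 1459976_s_at was 1.43-fold, 1440222_at 1.39-fold and 1435304_at 1.17-fold lower, so 4 of 4 probe sets above the floor had negative ratios but 1 of them reached 1.5-fold. In duodenum, 1459976_s_at was 1.43-fold higher, at 8239.0 and 11789.9, while 1440222_at was 2.67-fold lower, at 1748.8 and 654.2. The fifth probe set, 1447761_x_at, was below the floor on all arrays, at 50.8 or less. On the scale of the spiked controls the liver log2 ratio of Sod1 was -0.15 in place of -0.83, and over the mean of its probe sets it was -0.51.

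Sod2 had no direction that its probe sets shared between the genotypes. The brightest, 1448610_a_at, read 11983.9 and 14673.9 in wild-type and CA-AhR liver and 3616.6 and 3034.1 in wild-type and CA-AhR duodenum, which is 1.22-fold higher and 1.19-fold lower. The probe set 1417193_at read 9441.8 and 10396.3 in liver and 2870.5 and 1674.6 in duodenum. Against these, 1454976_at read 3224.8 and 1614.6 in liver, which is 2.00-fold lower, and 935.2 and 1212.2 in duodenum, 1.30-fold higher.

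The liver log2 ratios of the Sod2 probe sets thus ran from 0.29 for the brightest down to that 2.00-fold lower value. Over the 1007 genes with several probe sets of signal 1000 or more on both liver arrays, the median range was 0.26 and the 90th percentile 0.63, so the probe sets of Sod2 lay further apart than those of most such genes. The dim probe set 1417194_at read 305.7 and 249.0 in liver and 125.4 and 155.0 in duodenum. Whether the probe sets of Sod2 read different transcript forms was not tested.

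Sod3 was higher in CA-AhR liver and close to the floor in duodenum. Its brighter probe set, 1417633_at, read 430.2 in wild-type liver, 770.8 in CA-AhR liver, 165.2 in wild-type duodenum and 139.5 in CA-AhR duodenum. Both liver arrays lay above both duodenum arrays, and the liver difference was 1.79-fold. The dimmer probe set, 1417634_at, passed the floor in CA-AhR liver only, at 164.1 against 124.6, 53.2 and 40.8, a bound of at least 1.27-fold. In liver Sod3 alone of the 8 stayed past 1.5-fold in all 7 alternative settings, at log2 ratios of 0.59 to 1.52, and Gpx2 did so in the 6 that measured it. The changes of floor and the removal of probe sets for several transcripts could not alter the Sod3 value of 0.84. For Gpx2, with 1 probe set, the settings on probe sets and the absence of a floor could not alter its liver value.

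Markers of connective tissue were, like Sod3, higher in CA-AhR than in wild-type liver. Of 8 fibroblast and stellate cell markers, 7 were 1.5-fold or more higher in CA-AhR liver and 0 lower, with a median log2 ratio of 1.55. Their summed signal was 8504 in wild-type and 24798 in CA-AhR liver, and 0 of the 8 were below the floor on either array. Smooth muscle markers summed to 2786 and 3205, with Myh11, Cnn1 and Actg2 below the floor on both liver arrays. Endothelium had 1 higher and 1 lower of 7 measured, and macrophages 1 and 1 of 10. Between tissues in wild-type mice, Sod3 was 2.60-fold higher in liver. Of the 8 fibroblast and stellate cell markers, 4 were lower there and 1 higher, where 32.5% and 21.9% of all genes were. The part of these cells in the Sod3 value was not tested.

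Cat was bright in liver and lower there in the CA-AhR pool by less than the fold used for a call. The probe set 1416429_a_at read 27351.0 in wild-type and 21799.9 in CA-AhR liver, and 1416430_at read 32537.2 and 21965.2. Both probe sets thus had negative ratios, 1.25-fold and 1.48-fold lower. For the first probe set the log2 ratio was -0.33, while quantile normalisation and loess gave -0.13 and -0.09 and the scale of the spiked controls turned it to 0.35.

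In duodenum the probe sets of Cat disagreed past the calling fold in both directions. The probe set 1416429_a_at read 6051.0 in the wild-type and 10575.4 in the CA-AhR pool, 1.75-fold higher. The probe set 1416430_at read 4397.4 and 2467.2 on the same arrays, 1.78-fold lower. Of 811 genes with several probe sets of signal 1000 or more on both duodenum arrays, 37 (4.56%) had probe sets past 1.5-fold both ways, while in liver 1 of 1007 did. The median range of log2 ratios over such probe sets was 0.62 in duodenum and 0.26 in liver. The Gapdh 3′ to 5′ ratio of the CA-AhR duodenum array stood apart in the same comparison, and its part in the disagreement was not tested. Whether catalase transcripts were higher or lower in CA-AhR duodenum is therefore not settled by these arrays.

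**Figure D1:**
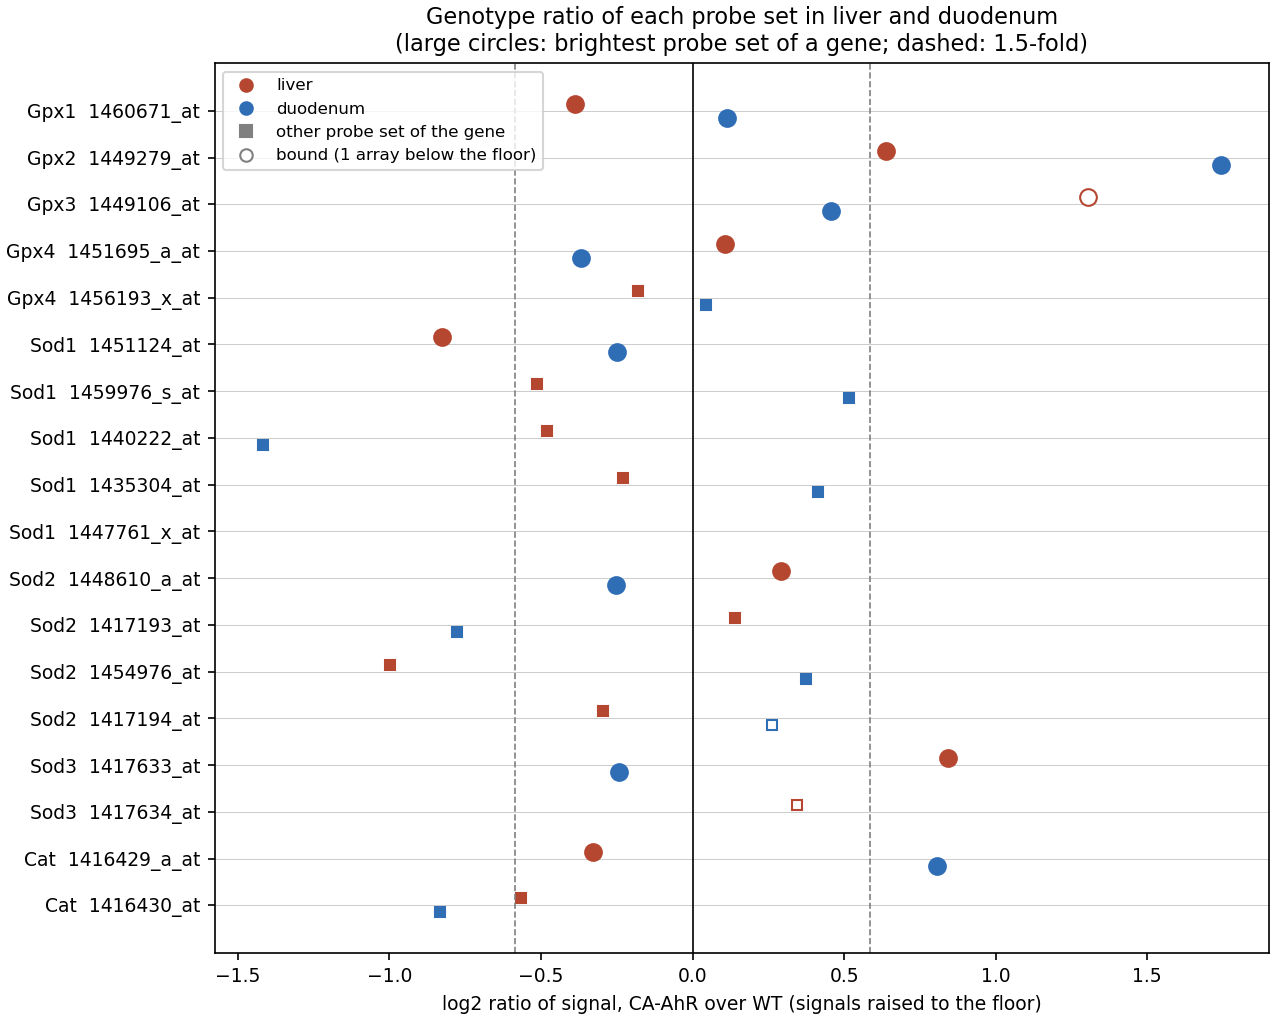
Log2 ratio of signal, CA-AhR over wild type, for each probe set in liver and duodenum, with large circles for the brightest probe set of a gene, squares for the others, open symbols for bounds and dashed lines at 1.5-fold. The probe sets of Sod1 all lie below 0 in liver, while those of Cat lie at 0.81 and -0.83 in duodenum.

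Gpx1, the cytosolic glutathione peroxidase, has 1 probe set, 1460671_at. It read 57423.1 in wild-type liver, 43878.7 in CA-AhR liver, 11996.7 in wild-type duodenum and 12966.1 in CA-AhR duodenum. Both liver arrays lay above both duodenum arrays. Between genotypes Gpx1 was 1.31-fold lower in liver and 1.08-fold higher in duodenum, both within the calling fold, and neither sign held under quantile normalisation, which gave log2 ratios of 0.01 and -0.21. The spiked control scale also turned the liver sign, at 0.29, and loess the duodenum sign, at -0.14. In wild-type liver 48 probe sets of the array were brighter, so Gpx1 lay near the top of the signal range.

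Gpx2, the gut epithelial enzyme, had the largest genotype ratio of the 8 genes measured on both arrays of a tissue. Its probe set 1449279_at read 140.1 in wild-type liver, 217.9 in CA-AhR liver, 2361.0 in wild-type duodenum and 7903.5 in CA-AhR duodenum. The CA-AhR duodenum array was the highest and both liver arrays were near the floor. In duodenum this is 3.35-fold higher, rank 251 from the top among 14721 genes. The value rests on the CA-AhR duodenum array, whose Gapdh 3′ to 5′ ratio stood apart at 3.07. The part of this in the Gpx2 value was not tested. The log2 ratio there was 1.74, and it lay between 1.51 and 1.74 over all 7 alternative settings. In liver the difference was 1.56-fold, and with a higher floor of 266.3 Gpx2 was below the floor on both liver arrays.

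Some marker lists of other cells were higher where Gpx2 was and others were not. Their counts stand beside 19.2% of all genes higher and 25.9% lower in CA-AhR duodenum. In CA-AhR liver the shares were 13.5% and 12.1%. In duodenum 5 of 6 measured Brunner gland and stomach markers and 9 of 9 exocrine pancreas markers were higher in the CA-AhR pool and 0 lower. Their summed signals were 3768 and 156421 for the first list and 3178 and 101364 for the second, wild type first. Atp4a and Muc5ac, of the gastric proton pump and gastric mucus, were below the floor on both duodenum arrays. Atp4b, the other proton pump gene of the list, was above it, at 573.4 in the wild-type and 497.7 in the CA-AhR pool. Of 8 enterocyte markers 4 were higher and 1 was lower, summing to 221840 and 308630, with Anpep at 3.95-fold and Slc15a1 at 2.64-fold higher. Smooth muscle markers were higher in 4 of 6, goblet cell markers in 2 of 7 and Paneth cell markers in 2 of 6, with 0 lower in each. Stem and transit cell, macrophage, endothelium and neutrophil markers had 0 higher and 2 lower per list. Plasma and B cell markers had 0 higher and 1 lower. In liver, 5 of 8 enterocyte markers were higher and 0 lower, with Vil1, Lct and Slc15a1 below the floor in the wild-type pool. Of the measured markers 3 of 4 for Paneth cells, summing to 2072 and 8503 over the list, and 2 of 4 for goblet cells, summing to 1021 and 3168, were also higher there. Of 6 measured Brunner gland and stomach markers in liver, 2 were higher and 0 lower, with a median log2 ratio of -0.29. These were Tff2, at least 15.9-fold higher in CA-AhR liver, and Gkn3, 2.28-fold higher. Of 6 measured exocrine pancreas markers in liver, 0 were higher and 1 was lower on the probe sets that stood for them. The lower one, Prss2, had log2 ratios of 1.16 to 1.66 on its other probe sets, so its direction was not shared. Cela3b, within the calling fold, had 0.89 to 2.04 on its other probe sets. The part of these cells in the Gpx2 values was not tested.

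Gpx3, the secreted peroxidase, was below the floor in wild-type liver and above it in the CA-AhR pool. Its probe set 1449106_at read 55.6 in wild-type liver, 319.5 in CA-AhR liver, 955.3 in wild-type duodenum and 1312.3 in CA-AhR duodenum. Both duodenum arrays were above both liver arrays. The liver difference was at least 2.47-fold, and since Gpx3 passed the floor there only through the CA-AhR array, a higher value in that array was built into its being counted. With the floor at 266.3 the bound fell to a log2 ratio of 0.26. In duodenum Gpx3 was 1.37-fold higher, which is within the calling fold.

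The liver signal of Gpx3 can be set against that of its own probe set in duodenum. In CA-AhR liver it was 33.4% of the wild-type duodenum signal, and in wild-type liver it was below the floor. For Gpx2 the share was 9.23% in CA-AhR liver and 5.93% in wild-type liver. For marker lists the share was taken in CA-AhR liver only, so it shows no gain over wild-type liver. The median share over 8 enterocyte markers was 2.80%, over 7 goblet cell markers 1.75% and over 5 Paneth cell markers 4.72%. Over 3 stem and transit cell markers it was 13.6%, the share of Top2a, which read 200.2 in wild-type and 169.0 in CA-AhR liver. The median was 14.5% over 4 smooth muscle markers, of which Actg2, at 63.0, was below the floor in CA-AhR liver. It was 14.1% over 2 plasma and B cell markers. Fibroblast and stellate cell markers had 116% over 4, and the 1 Brunner gland and stomach marker had 106%. All markers in these medians had a signal of at least 1000 in wild-type duodenum. That last marker, Tff1, read 3365.7 in wild-type and 2265.5 in CA-AhR liver, so it was lower in the CA-AhR pool. Tff2 was left out by this limit, at 225.8 in wild-type duodenum and 2058.7 in CA-AhR liver. The part of these cells in the Gpx3 value was not tested.

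Gpx4, the lipid peroxide reductase, differed least between genotypes in liver. The probe set 1451695_a_at read 6426.0 in wild-type liver, 6925.7 in CA-AhR liver, 14983.2 in wild-type duodenum and 11596.6 in CA-AhR duodenum. The probe set 1456193_x_at read 4048.9, 3573.8, 16371.6 and 16890.4 in the same order. In each tissue 1 probe set was higher and the other lower, all within 1.3-fold. Both identifiers end in a suffix for probe sets that can detect several transcripts. Quantile normalisation and loess put the duodenum log2 ratio of the first probe set at -0.66 and -0.62, past the calling fold, in place of -0.37.

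The tissue comparison split the family more widely than genotype did. In wild-type mice 7 of the 8 genes differed by 2-fold or more between liver and duodenum, where 32.1% of all genes did. At 1.5-fold the same count held: 4 were higher in liver, where 21.9% of all genes were, and 3 were lower, where 32.5% were. The median log2 ratio of the 8 genes was 0.95, beside -0.18 over all 14919 genes. Gpx1 was 4.79-fold, Cat 4.52-fold, Sod2 3.31-fold and Sod3 2.60-fold higher in wild-type liver. Gpx2 was 16.9-fold, Gpx3 at least 7.39-fold and Gpx4 2.33-fold lower. Sod1 was 1.43-fold higher in liver, within the calling fold.

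**Figure D2:**
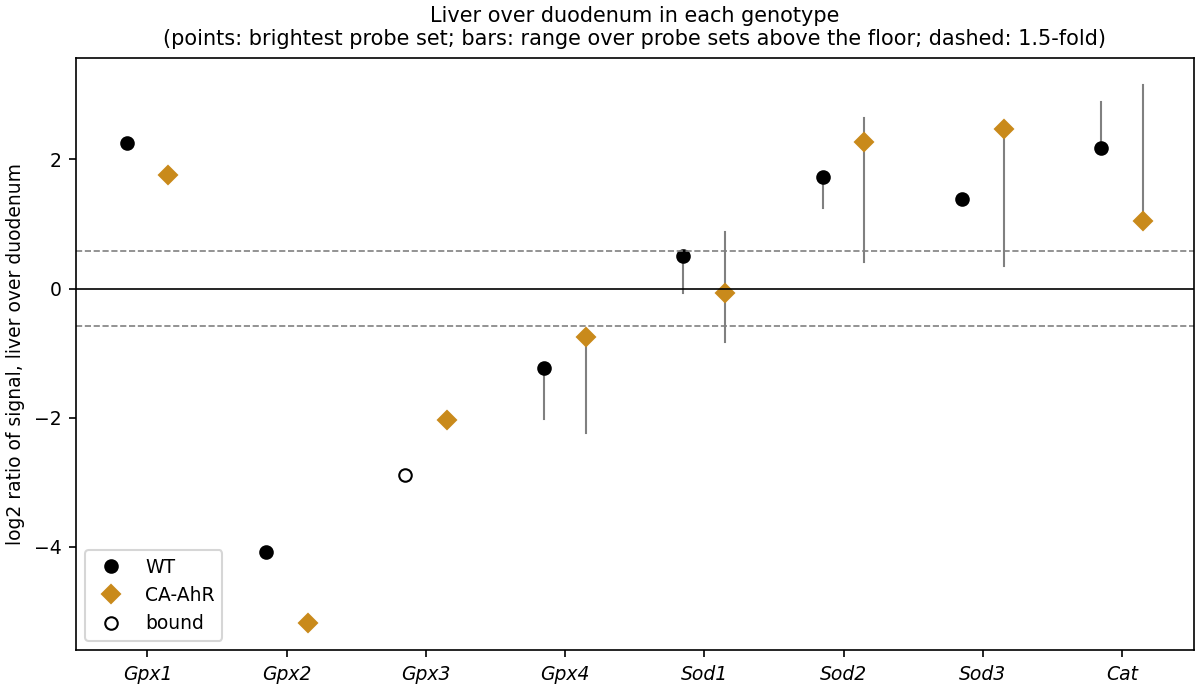
Log2 ratio of signal, liver over duodenum, for the brightest probe set of each gene in wild-type (circles) and CA-AhR mice (diamonds), with bars for the range over probe sets above the floor, an open circle for a bound and dashed lines at 1.5-fold. Gpx1, Sod2, Sod3 and Cat lie above 0 and Gpx2, Gpx3 and Gpx4 below it in both genotypes.

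The same 7 genes were called in CA-AhR mice, in the same directions. There 4 were higher in liver, where 26.7% of all genes were, and 3 lower, where 27.8% were, and 6 of the 8 reached 2-fold, where 33.4% of all genes did. Both probe sets of Cat and of Gpx4, and the 3 brightest of Sod2, had the same sign in both genotypes. In CA-AhR mice Gpx2 was 36.3-fold lower in liver, Gpx3 4.11-fold and Gpx4 1.67-fold lower, while Sod3 was 5.53-fold, Sod2 4.84-fold, Gpx1 3.38-fold and Cat 2.06-fold higher. For several genes the order of these folds between genotypes was not stable. The log2 ratio of Cat, wild type first, was 2.18 and 1.04 on 1416429_a_at but 2.89 and 3.15 on 1416430_at. That of Gpx4 was -1.22 and -0.74 on 1451695_a_at but -2.02 and -2.24 on 1456193_x_at. That of Sod2 was 1.73 and 2.27 on its brightest probe set but 1.79 and 0.41 on 1454976_at. For Gpx1 it was 2.26 and 1.76 as deposited but 1.90 and 2.11 after quantile normalisation. These comparisons share arrays with the genotype comparisons and are not independent of them. On the scale of the spiked controls Gpx4 in CA-AhR mice turned to a log2 ratio of 0.44.

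Between tissues, the genotype ratios of Sod3, Cat and Gpx2 lay furthest apart. The liver log2 ratio minus the duodenum log2 ratio was 1.09 for Sod3, -1.13 for Cat and -1.11 for Gpx2. Of the 12996 genes measured in both tissues, 22.5%, 21.0% and 21.8% lay as far apart or further, so these distances were not unusual among all genes.

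Genes with the most similar profile over the 4 arrays were found by the distance between log2 signals centred on each gene's mean, among 10132 other genes above the floor on all arrays (10133 for Gpx3, which is itself below it in wild-type liver). For Gpx2 they were Slc43a2, an amino acid transporter, and Tspan13, a tetraspanin, at distances of 0.36 and 0.46, and no other gene came within 0.5. For Gpx3 they were Sgk1, a kinase of sodium transport, and Spint2, an epithelial protease inhibitor, at 0.17 and 0.35, with the wild-type liver value of Gpx3 raised from 55.6 to the floor. For Sod3 they were Tnfaip2 and Abcc9, a channel subunit of muscle and vessel wall cells, at 0.24 and 0.25. Nearest to Cat were Psmg1, a proteasome assembly factor, and Pla2g12a, a phospholipase. Nearest to Gpx1 were Lsm10 and Habp4, and nearest to Sod2 were Hfe, a regulator of iron uptake, and Clec14a. Gpx4 and Sod1, whose profiles were flatter, had 660 and 575 genes within 0.5, led by Otud3 and Zfp236 and by Sgf29 and Zc2hc1c. With 4 arrays such likeness is a description only.

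Partners of the 8 enzymes were read from lists of related genes. Their counts stand beside 13.5% of all genes higher and 12.1% lower in CA-AhR liver, and 19.2% higher and 25.9% lower in CA-AhR duodenum, and most lists are short enough that a few genes make a large share. The same shares hold beside the counts of cell type markers. Among the other glutathione peroxidases, Gpx5, Gpx6 and Gpx7 were within 1.5-fold in liver, and Gpx5 to Gpx8 were below the floor on both duodenum arrays. Of 4 measured peroxiredoxin and sulfiredoxin genes, which remove peroxide through cysteines, 1 was higher in CA-AhR liver: Srxn1, which restores overoxidised peroxiredoxins, 1.69-fold, with log2 ratios of -0.15 to 1.62 on its other probe sets. In duodenum Prdx2 was 1.64-fold and Prdx4, of the endoplasmic reticulum, 1.60-fold higher and 0 were lower. The other probe set of Prdx2 had a log2 ratio of -0.13.

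In the thioredoxin and glutaredoxin system 2 of 10 genes were higher and 2 lower in both tissues, which in duodenum is a smaller share called than the 45.1% of all genes. The mitochondrial thioredoxin gene Txn2 was 2.70-fold higher in CA-AhR liver and 2.17-fold higher in CA-AhR duodenum, and its other probe sets had positive log2 ratios of 0.45 to 1.49. In liver the reductase gene Txnrd1 was 1.71-fold higher, Txnip, a thioredoxin inhibitor, 1.75-fold lower and Txnrd2 1.52-fold lower. The other probe sets of Txnrd2 ran from -1.84 to 0.99 in liver and those of Txnrd1 from -0.02 to 0.33, so neither direction was shared by all. In duodenum Txnrd2 was 1.64-fold higher, and Glrx and Glrx3 were 1.77-fold and 1.69-fold lower.

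Glutathione synthesis and recycling supplies the reductant of the glutathione peroxidases. In liver 1 of 9 genes was higher, the glutathione reductase gene Gsr at 1.63-fold, and 0 were lower. The other probe set of Gsr had a liver log2 ratio of 0.04. In duodenum 3 of 9 were higher and 1 lower: Gclm, the modifier subunit of the rate-limiting ligase, 2.58-fold, Oplah at least 2.56-fold and Gss, glutathione synthetase, 1.74-fold higher, and Chac2, which degrades glutathione, 6.37-fold lower. The other probe set of Gclm had a duodenum log2 ratio of -1.51, so its direction was not shared. Of 5 NADPH-supplying genes, 0 were higher and 1 lower in liver (Idh1, 1.99-fold), and 3 were higher and 1 lower in duodenum: Pgd 1.98-fold and Idh2 1.76-fold higher, Me1 1.56-fold lower. The other probe sets of Idh2 and Me1 had log2 ratios of -1.13 and 1.12, the opposite way. That of Idh1 had -0.17 in liver, within the calling fold.

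Selenium genes bear on the glutathione peroxidases, whose active site is a selenocysteine. Of 8 genes for selenium handling and selenocysteine insertion, 0 were higher and 1 lower in CA-AhR liver (Lrp8, at least 1.70-fold). Selenop, the plasma selenium carrier, read 69055.4 and 46259.8 in liver, 1.49-fold lower, and 67257.6 and 66761.5 in duodenum. In duodenum Eefsec, the selenocysteine elongation factor, was at least 2.11-fold higher and Sepsecs, which makes selenocysteine on its tRNA, 1.85-fold lower. Of 12 other selenoprotein genes measured in liver, 5 were higher and 1 lower, led by Selenok at 1.84-fold and Selenom at at least 1.82-fold. The higher ones include Txnrd1 and the lower one is Txnrd2, both counted in the thioredoxin list as well. In duodenum 5 of 13 were higher and 2 lower, with Selenom 2.17-fold and Selenon 2.12-fold higher and Selenof 1.89-fold and Selenot 1.66-fold lower. This is 7 of 13 called, with Txnrd2 again among them, where 45.1% of all genes were. The other probe sets of Selenot ran from -3.29 to 0.34.

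Copper and manganese delivery genes were read beside the dismutases, which need these metals. Ccs, the chaperone that loads copper onto the Sod1 protein, read 5546.4 in wild-type and 8670.8 in CA-AhR liver, 1.56-fold higher, and was 1.41-fold higher in duodenum. Of the 10 copper and manganese delivery genes, 1 was higher and 1 lower in liver, the latter being the metal importer Slc39a14 at 1.56-fold, whose other probe sets ran from -1.31 to 0.37. In duodenum 0 were higher and 4 lower, among them the copper importer Slc31a1 at 1.99-fold and Slc31a2 at at least 2.98-fold. The other probe set of Slc31a1 had a log2 ratio of -0.28 there. Of 9 mitochondrial matrix genes, the neighbours of Sod2, 0 were called in liver, and 3 were higher in duodenum, led by Lonp1 at 1.90-fold and Cs at 1.79-fold, the latter with -0.05 to 0.26 on its other probe sets.

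Sources of hydrogen peroxide and the peroxisome were set beside Cat. Of 10 oxidase genes measured in liver, 3 were lower and 1 higher: the hydroxyacid oxidases Hao2 and Hao1 were 2.48-fold and 1.94-fold and urate oxidase, Uox, 1.70-fold lower, and the aldehyde oxidase gene Aox1 was 2.02-fold higher. Of 16 peroxisome assembly and membrane genes, 1 was lower and 0 higher in liver (Pex10, 1.57-fold). In duodenum the same list split into 5 higher and 4 lower, from Pex14 at 2.92-fold and Pex16 at 2.12-fold higher to Pex7 at 2.07-fold and Pex3 at 3.58-fold lower, so that 9 of 16 were called where 45.1% of all genes were. Of 9 oxidase genes in duodenum, 2 were higher and 3 lower, with Acox2 1.99-fold and Dao 1.54-fold higher and Uox at least 2.66-fold and Acox3 at least 2.37-fold lower. The list of NADPH oxidases and their partners had 0 higher and 1 lower of 8 in liver (Duoxa2, at least 1.55-fold). In duodenum 2 of 8 were higher and 2 lower: Noxo1 at 2.39-fold and Rac2 at 1.99-fold higher, Ncf4 at 2.05-fold and Ncf1 at 1.86-fold lower. All genes called in this list were partners of the oxidases. Other probe sets of Rac2, at -0.23, and of Ncf1, at up to 1.01, went the opposite way.

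**Figure D3:**
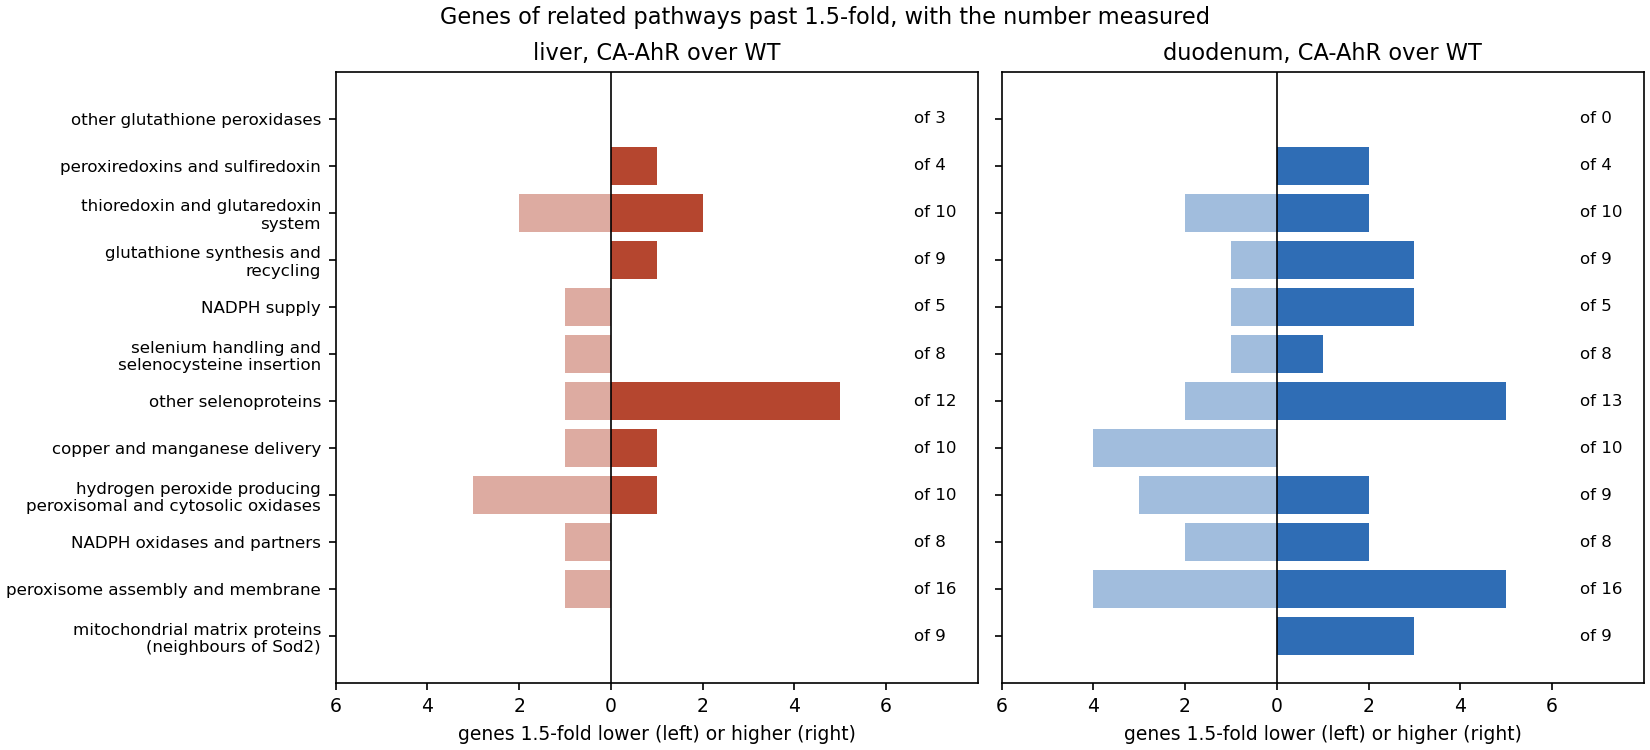
Number of genes of each related list that were 1.5-fold or more higher (right) or lower (left) in CA-AhR than in wild-type liver and duodenum, with the number measured beside each bar. The lists differ in length and the bars are to be read against 25.6% of all genes called in liver and 45.1% in duodenum, as for the peroxisome list with 1 of 16 called in liver and 9 of 16 in duodenum.

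**Figure D4:**
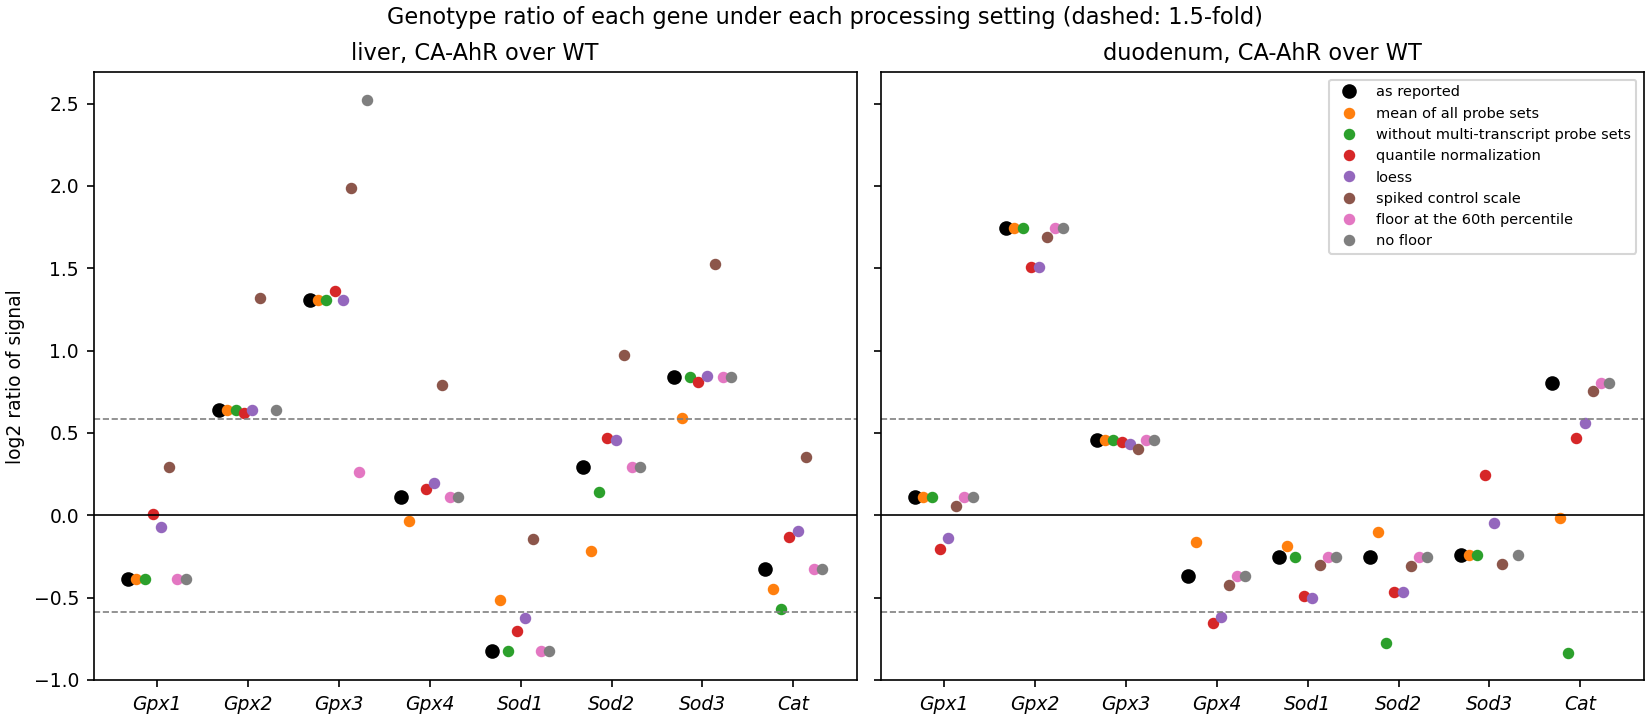
Log2 ratio of signal, CA-AhR over wild type, for each of the 8 genes as reported (large black points) and under 7 other processing settings, with dashed lines at 1.5-fold. Gpx2 in duodenum and Sod3 in liver stay past 1.5-fold under each, while Cat in duodenum runs from -0.83 to 0.81. The changes of floor and the removal of probe sets for several transcripts could not move Gpx2 in duodenum or Sod3 in liver. Averaging of probe sets could not move Gpx2 either.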

How the data were processed

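Total RNA extracted with Trizol was labelled as biotinylated cRNA for Affymetrix Mouse Genome 430 2.0 arrays, per the labels' protocols and the series' design text. The authors deposited 1 linear signal intensity for each probe set, made with MAS5 per the submitters' processing notes. Detection calls were not used here, and the MAS5 version is not given in the sources used here. Global scaling to the same trimmed mean (2% left out at each end) makes every ratio relative to the array.

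Probe sets with 1 gene symbol (34958) were used, with symbols updated through Entrez identifiers from RefSeq of GRCm38.p6; 932 had several symbols and 9211 none. The probe set of highest mean log2 signal stood for a gene. The floor is the mean over arrays of the 40th percentile of all but 64 control probe sets, and genes below it on both arrays of a comparison were left out of it. Log2 ratios were computed with Python 3.11.15, numpy 2.4.6 and pandas 2.3.3, with loess (span 0.3) from statsmodels 0.14.6. The fold caller was run on simulated data with planted changes past the calling fold and little noise, which checks the code only. The number of arrays limits the precision.

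Named besides the 8 genes were, per list, up to 2 called genes each way in a tissue and the 2 nearest profiles of each member. In all, 12 pathway and 14 marker lists were read. Members, lists and settings were chosen with earlier results of these data known.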

Additional observations from a re-analysis of the deposited data

Results flagged for a closer look

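Sod3 and Cat had genotype ratios of opposite sign in liver and duodenum, with 1 of them past 1.5-fold. For Sod3 the log2 ratio of CA-AhR over wild type was 0.84 in liver and -0.24 in duodenum, where both signals were near the floor and quantile normalisation gave 0.24. For Cat it was -0.33 in liver and 0.81 in duodenum on 1416429_a_at, while 1416430_at gave -0.57 and -0.83, so the opposition is not shared by its probe sets. With 1 array per group the difference between tissues was not tested.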

How the results depend on the processing

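Of 218 log2 ratios of single members under an alternative setting, 187 moved by less than 1.5-fold, 28 moved by more and 3 called ones changed sign. The 187 include ratios that a setting could not alter, as for genes with 1 probe set when probe sets were averaged. The sign changes were Cat in duodenum, at -0.0142 over the mean of its probe sets and at -0.83 when those for several transcripts were left out, and Gpx4 of liver over duodenum in CA-AhR mice, at 0.44 on the spiked control scale. In liver 4 members were called, but 2 with a higher floor of 266.3 and 1 at 2-fold. In duodenum 2 were called, but 1 over the mean of probe sets and 1 at 2-fold. The other counts stayed within 1.5 times, from 6 to 8 between tissues, but not always with the same genes. In duodenum 1 was higher (Gpx2) and 2 lower (Sod2 and Cat) without probe sets for several transcripts, and 1 higher (Gpx2) and 1 lower (Gpx4) under quantile normalisation and loess. In liver 5 were higher and 0 lower on the spiked control scale, with Gpx4 and Sod2 added and Sod1 lost, and 3 higher and 0 lower over the mean of probe sets. The spiked control scale shifted the median of all genes by 0.68 in CA-AhR over wild-type liver, 0.38 in wild-type and 1.18 in CA-AhR liver over duodenum. Relative to that median Sod1 in liver stayed at -0.84. Quantile normalisation and loess shifted the duodenum median by 0.15 and 0.13, and Gpx2 relative to it was 1.47 and 1.49, beside 1.85 as deposited. All genes called in duodenum split into 2831 higher and 3815 lower as deposited, 3371 and 2797 under quantile normalisation and 3497 and 2191 under loess. In liver the spiked control scale gave 8270 higher and 206 lower, beside 1888 and 1687. In wild-type liver over duodenum loess gave 4118 and 3511 and the spiked controls 5144 and 2900, beside 3268 and 4846, and in CA-AhR mice the spiked controls gave 10459 and 1139, beside 3849 and 4012. The cause of these changes was not tested. No paired analysis was possible because each group holds 1 array. Signals of Gpx2 and Gpx3 in liver and of Sod3 in duodenum lie near or below the floor, which limits their folds.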
